A study of Mus musculus with 2 samples.

Results

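The genes described here are 10 amino acid transporter genes, chosen by name: Slc7a1, Slc7a2, Slc7a4, Slc7a5, Slc7a6, Slc7a7, Slc7a8, Slc7a10, Slc7a11 and Slc3a2. They were 10 of 18193 genes with a single-gene probe set, and every one of their 20 probe sets is given below. Liver RNA was measured on 2 Affymetrix arrays. The antagomir-122 array held RNA pooled from 3 livers of mice injected with an antagomir, a chemically modified oligonucleotide complementary to the liver microRNA miR-122. The mm-antagomir-122 array held RNA pooled from 3 livers of mice injected with the scrambled control oligonucleotide. In both groups 80 mg/kg was injected per day on 3 days and the livers were taken 24 h after the last injection. Strain, sex and age are not given in the sources used here. Each group was a single pooled array, so the spread between animals could not be measured, no test was run and every value describes these 2 pools.

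Slc7 proteins carry amino acids across the plasma membrane. Slc7a1, Slc7a2 and Slc7a4 belong to the cationic amino acid transporter branch, which works without a partner. Slc7a1 (CAT-1) is a widely expressed high-affinity carrier of arginine, lysine and ornithine. It is known to be scarce in hepatocytes, and its RNA has been reported as a target of miR-122. Slc7a2 (CAT-2) is the paralog used by hepatocytes, and the transport function of Slc7a4 is not established. The other Slc7 genes encode light chains that pair with the heavy chain Slc3a2 (4F2hc, CD98), which brings them to the cell surface.

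The deposited values were linear MAS5 signals, and a ratio is log2 of the antagomir-122 signal over the mm-antagomir-122 signal. A floor at a signal of 238, the 60th percentile of the mean log2 signals of the non-control probe sets, marks dim values, which without detection calls cannot be told from background. Of the 10 genes, 6 lay above the floor on their brightest probe set (Slc7a1, Slc7a2, Slc7a4, Slc7a7, Slc7a8 and Slc3a2) and 4 lay under it (Slc7a5, Slc7a6, Slc7a10 and Slc7a11). The brightest and second probe sets of a gene gave log2 ratios that varied with an SD of 0.28 over 3860 genes above the floor. This spread was 0.36 at signals of 238 to 476 (446 genes), 0.31 at 476 to 953 (1117 genes) and 0.20 above 3811 (599 genes). It takes in real differences between transcripts of a gene, and none of the spread from mouse to mouse. Hepatocyte markers were bright on both arrays, with all 8 above the floor and log2 ratios from -0.10 to 0.04. The spiked hybridization controls had a median log2 ratio of -0.27 over 18 probe sets, so scaling on them would add 0.27 to every ratio. Higher and lower below describe the antagomir-122 pool on the deposited scale, on which all genes above the floor had a median log2 ratio of 0.00.

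Slc7a8, which encodes a neutral amino acid exchanger, was the 1 gene of these 6 past 1.5-fold. It was 2.04-fold higher in the antagomir-122 pool, and 0 of the 6 were at least 1.5-fold lower. Among all 10003 genes above the floor, 5.12% were higher by at least 1.5-fold and 2.62% lower by that much. The other 5 genes lay within 1.2-fold of the control signal. The median log2 ratio of the 6 was 0.17, against 0.00 for all genes. Ratios were above 0 for 4 of the 6 genes, beside 50.3% of all genes. The 2 below 0, Slc7a1 and Slc3a2, were below it by less than the 0.27 that scaling on the hybridization controls adds to every gene alike, so on that scale they too lie above 0.

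**Figure D1:**
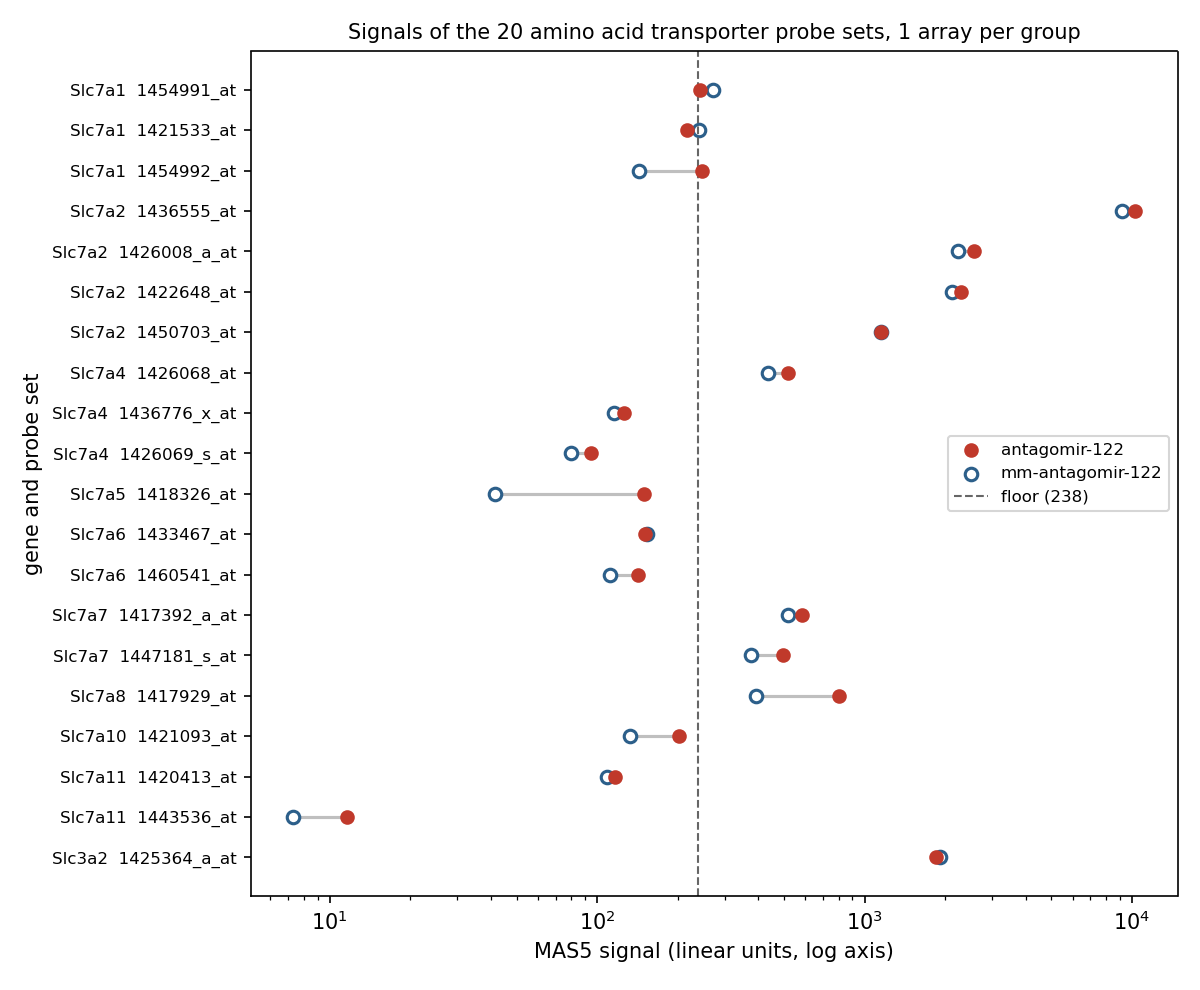
MAS5 signals of the 20 probe sets of the 10 genes (log axis), with the antagomir-122 array as filled red points and the mm-antagomir-122 array as open blue circles, 1 array each. Slc7a8 is the gene whose signals are both above the floor of 238 and stand more than 1.5-fold apart (804 and 394).

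Slc7a1 did not stand apart from the bulk of the genes, and its probe sets disagreed. The brightest, 1454991_at, had a signal of 242 in the antagomir-122 pool and 271 in the mm-antagomir-122 pool, a log2 ratio of -0.17. The second, 1421533_at, had 216 in the antagomir-122 pool and 241 in the mm-antagomir-122 pool, a log2 ratio of -0.15. The third, 1454992_at, had 246 in the antagomir-122 pool and 143 in the mm-antagomir-122 pool, a log2 ratio of 0.78. Thus 2 of the 3 probe sets were lower and 1 was higher in the antagomir-122 pool. All 3 lay close to the floor, with a mean signal above that of 61.7%, 58.9% and 54.0% of the non-control probe sets. Measured against the floor, the third probe set was at least 1.03-fold higher and the second at least 1.01-fold lower. The ratios spanned 0.95 on the log2 scale over 3 probe sets, of which 1 was above the floor by its mean. For scale, the difference between 2 probe sets of a gene had an SD of 0.51 at signals of 238 to 476. That SD came from genes with both probe sets above the floor, so it does not cover the dimmer Slc7a1 probe sets. The mean log2 ratio of the 3 probe sets was 0.15 with an SD of 0.54 over probe sets. The log2 ratio of the brightest probe set was -0.27 after quantile normalization. Among all 2891 genes at signals of 238 to 476, 8.61% were higher by at least 1.5-fold and 4.25% lower by that much. A difference in Slc7a1 RNA below the spread at this signal was not detectable on these arrays.

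The reported targets of miR-122 other than Slc7a1 were mostly higher in the antagomir-122 pool. The comparison list held 13 genes besides Slc7a1, of which 12 were above the floor. Of these 12, 11 were at least 1.5-fold higher in the antagomir-122 pool, and their log2 ratios ran from 0.28 to 1.53 with a median of 1.02. The ratio of Slc7a1 on its brightest probe set was lower than that of each of the 12. Bckdk, the kinase that inactivates branched-chain ketoacid dehydrogenase, had signals of 1338 in the antagomir-122 pool and 465 in the mm-antagomir-122 pool. Ccng1 (cyclin G1) had 2318 in the antagomir-122 pool and 809 in the mm-antagomir-122 pool, and Hjv (hemojuvelin, of iron regulation) had 6843 and 2448 in the same order. Those 3 had log2 ratios of 1.53, 1.52 and 1.48. The log2 ratios were 1.05 for Tmed3, 0.99 for Agpat1, 0.95 for Cd320, 0.87 for Aldoa, 0.69 for Ndrg3, 0.64 for Adam17 and 0.28 for Iqgap1. P4ha1 was at least 2.07-fold higher and Gpx7 at least 2.08-fold, since their control signals lay under the floor. Gys1, under the floor by its mean, had 371 in the antagomir-122 pool and 40.3 in the mm-antagomir-122 pool, at least 1.56-fold higher. Several of these targets are known to have been reported from these or closely related samples, so the list is no independent evidence of its direction. Elavl1 (HuR), an RNA-binding protein reported to relieve miR-122 repression of CAT-1 RNA in stressed human hepatoma cells, had signals of 1147 in the antagomir-122 pool and 1291 in the mm-antagomir-122 pool. Its log2 ratio was -0.17 on that probe set and 0.07 on the next brightest, and the third was at least 1.30-fold higher.

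**Figure D2:**
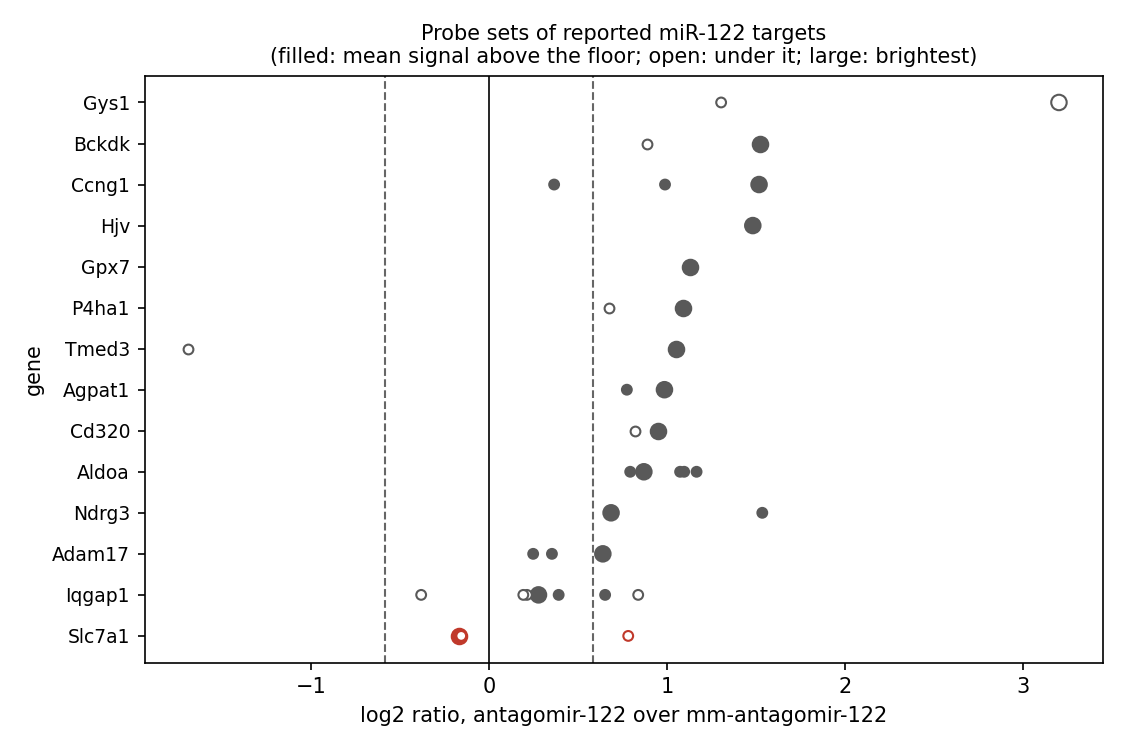
Log2 ratios of all probe sets of 14 reported miR-122 targets, with filled points for a mean signal at or above the floor, open points for one under it, large points for the brightest probe set and dashed lines at 1.5-fold. Slc7a1 (red) has its brightest probe set at -0.17 and another at 0.78, while 11 of the other 12 genes above the floor lie past 1.5-fold on their brightest.

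Slc7a2 was bright and close to equal in both pools. Its brightest probe set, 1436555_at, had 10304 in the antagomir-122 pool and 9156 in the mm-antagomir-122 pool, a log2 ratio of 0.17, or 1.13-fold higher. The others had 2568 and 2239 (1426008_a_at), 2288 and 2123 (1422648_at), and 1154 and 1151 (1450703_at) in the antagomir-122 and mm-antagomir-122 pools. All 4 probe sets were above the floor and none was lower in the antagomir-122 pool, with log2 ratios from 0.00 to 0.20 and a mean of 0.12 (SD 0.09 over probe sets). The ratio of 0.17 was below the spread of 0.20 between probe sets of equally bright genes. Slc7a2 makes a low-affinity form in hepatocytes and a high-affinity form in activated macrophages by alternative splicing, and the probe sets were not assigned to the forms here.

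Slc7a4, the orphan member of the cationic branch, had 517 in the antagomir-122 pool and 437 in the mm-antagomir-122 pool on its brightest probe set. That log2 ratio of 0.24 was within the spread between probe sets. Its other probe sets were under the floor in both pools, at 126 and 116 (1436776_x_at) and 95.0 and 79.7 (1426069_s_at), and carry suffixes that mark possible cross-hybridisation. In the cationic branch, then, 0 of 3 genes were past 1.5-fold on the brightest probe set. Over all genes above the floor 5.12% were higher and 2.62% lower by that much. Slc7a1 counts here with a signal at the floor and with another probe set at a log2 ratio of 0.78.

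Of the 6 light chains, Slc7a7 and Slc7a8 were bright enough to compare, and Slc7a8 was past 1.5-fold. Slc7a8 (LAT2) exchanges neutral amino acids, large and small, and is known mainly from kidney and intestinal epithelium. Its 1 probe set, 1417929_at, had a signal of 804 in the antagomir-122 pool and 394 in the mm-antagomir-122 pool. Both signals lay above the floor, and the log2 ratio of 1.03 was larger than the spread of 0.31 between probe sets at that signal. Slc7a8 ranked 78 of 10003 genes from the highest ratio. Of 2801 genes at signals of 476 to 953, 4.86% were at least 1.5-fold higher and 0.428% (12 genes) at least 2-fold higher. Over all genes above the floor 0.83% were at least 2-fold higher. The ratio ran from 0.99 after quantile normalization to 1.30 when scaled on the hybridization controls. There was no second probe set of Slc7a8 to set beside it, and no second array.

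**Figure D3:**
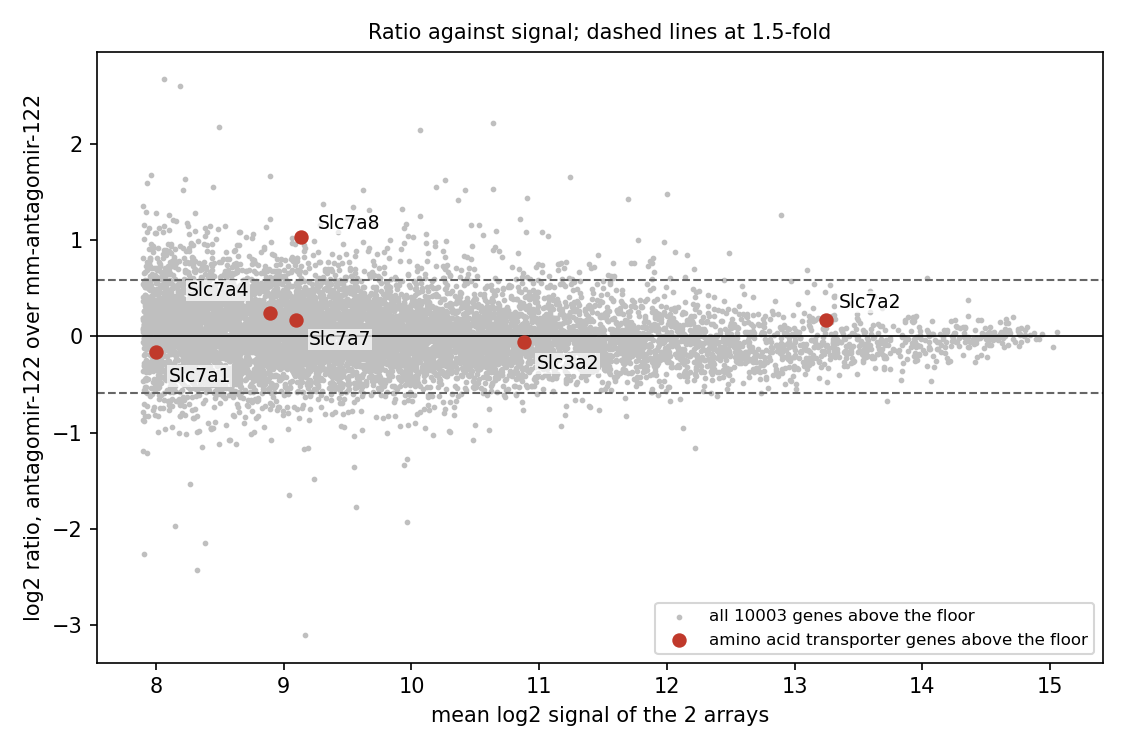
Log2 ratio (antagomir-122 over mm-antagomir-122) against mean log2 signal for 10003 genes above the floor (grey) and the 6 amino acid transporter genes among them (red), each on its brightest probe set, with dashed lines at 1.5-fold. Slc7a8 lies at 1.03, above the upper line, and the other 5 lie between -0.17 and 0.24.

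Slc7a7 (y+LAT1) exports cationic amino acids in exchange for neutral ones in epithelia and macrophages, and its loss in people causes lysinuric protein intolerance. Its brightest probe set, 1417392_a_at, had 582 in the antagomir-122 pool and 516 in the mm-antagomir-122 pool, a log2 ratio of 0.17. The second, 1447181_s_at, had 495 in the antagomir-122 pool and 376 in the mm-antagomir-122 pool, a log2 ratio of 0.40. Both were higher in the antagomir-122 pool and neither was past 1.5-fold. The second carries the suffix _s, which marks possible cross-hybridisation. Slc7a6 (y+LAT2), its close relative, was under the floor in both pools. Its probe sets had 151 and 154 (1433467_at) and 143 and 112 (1460541_at) in the antagomir-122 and mm-antagomir-122 pools, so their directions differed.

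Slc3a2, the heavy chain shared by these light chains, had 1851 in the antagomir-122 pool and 1922 in the mm-antagomir-122 pool on its 1 probe set. Its log2 ratio was -0.05. The heavy chain thus did not share the ratio of Slc7a8, which was 1.03. The heavy chain Slc3a1 (rBAT), the partner of Slc7a9 in kidney and intestine, had 973 in the antagomir-122 pool and 1253 in the mm-antagomir-122 pool, a log2 ratio of -0.36.

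The remaining 3 light chains were too dim to read. Slc7a5 (LAT1), the carrier of large neutral amino acids in proliferating cells, had 150 in the antagomir-122 pool and 41.5 in the mm-antagomir-122 pool, both under the floor. Slc7a10 (Asc-1), a carrier of small neutral amino acids known from brain and fat, had 202 in the antagomir-122 pool and 132 in the mm-antagomir-122 pool. Slc7a11 (xCT), which imports cystine for glutathione synthesis, had 117 and 108 on one probe set (1420413_at) and 11.6 and 7.3 on the other (1443536_at) in the antagomir-122 and mm-antagomir-122 pools. All of these signals lay under the floor, so no fold is given. Under the floor, 27.5% of 8190 genes were higher by at least 1.5-fold and 17.7% lower by that much, so ratios of that size are common among dim signals.

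The amino acid transporters outside these 10 genes showed small differences. Of 45 such genes with a probe set, Slc3a1 and 6 other Slc7 genes among them, 24 were above the floor, with a median log2 ratio of 0.04, and 2 were at least 1.5-fold higher, with 0 lower by as much. Slc43a2 (LAT4), a facilitator of neutral amino acid efflux, had 1379 in the antagomir-122 pool and 881 in the mm-antagomir-122 pool, 1.57-fold higher, but its next probe set had a log2 ratio of 0.20. Slc38a9, the lysosomal arginine sensor of the mTORC1 pathway, had 809 in the antagomir-122 pool and 537 in the mm-antagomir-122 pool, 1.51-fold higher, and its next probe set had 0.14. The amino acid transporter gene Slc36a4 had a log2 ratio of 0.44, and the liver glutamate transporter gene Slc1a2 had 0.36 on its brightest probe set and -0.12 on the next. Slc36a1 had -0.10. The 8 Slc38 genes above the floor had a median of 0.04, with Slc38a1 at 0.22 and Slc38a2 (the SNAT2 system A carrier) at -0.20. The 8 Slc1 and Slc6 genes above the floor had a median of 0.16 and 0 were past 1.5-fold on the brightest probe set. Among them Slc6a17 was at 0.28, Slc6a12 (the betaine transporter) at 0.24 and Slc6a9 (a glycine transporter) at 0.18. Some dimmer probe sets were past 1.5-fold. One of Slc6a6 had 231 in the antagomir-122 pool and 380 in the mm-antagomir-122 pool, at least 1.60-fold lower, beside a log2 ratio of 0.00 on its brightest. One of Slc38a3 had 857 and 523 in the same order, 1.64-fold higher, beside -0.06 on its brightest. Beyond amino acid carriers, 178 solute carrier genes were above the floor, of which 8.99% were higher by at least 1.5-fold, 2.81% were lower by as much and 1.69% (3 genes) at least 2-fold higher. The median log2 ratio was 0.02 over 10 Slc22 genes and 0.00 over 34 Slc25 genes.

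Genes of arginine, creatine and polyamine metabolism, which lie downstream of the arginine and ornithine that cationic carriers such as Slc7a1 move, differed little. Of 11 such genes above the floor, 0 were past 1.5-fold in either direction on the brightest probe set, and the median log2 ratio was -0.09, smaller than the 0.27 by which the scalings differ. Arg1, the urea-cycle arginase, had 20184 in the antagomir-122 pool and 21758 in the mm-antagomir-122 pool. Nos3 (endothelial nitric oxide synthase), Azin1 (an inhibitor of antizyme, in polyamine metabolism) and Gamt (creatine synthesis) had log2 ratios of -0.36, -0.21 and -0.12.

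Slc7a1, Slc7a5, Slc7a11 and Slc3a2 are known targets of ATF4, the transcription factor of the amino acid stress response. Of 19 genes of that response above the floor, on the brightest probe set 1 was higher by at least 1.5-fold and 1 lower by as much, with a median log2 ratio of 0.05. Atf4 itself had 3746 in the antagomir-122 pool and 3497 in the mm-antagomir-122 pool, and Asns (asparagine synthetase), a standard reporter of the response, had 388 and 349 in the same order. Phgdh, the first enzyme of serine synthesis, had 1044 in the antagomir-122 pool and 656 in the mm-antagomir-122 pool, 1.59-fold higher, on a probe set with the suffix _x that can cross-hybridise. Vldlr, the very low density lipoprotein receptor, had 389 in the antagomir-122 pool and 872 in the mm-antagomir-122 pool, 2.24-fold lower, on an _x probe set. All 6 of its probe sets had ratios below 0 as deposited, the next brightest -0.28, and the following ones in order of signal were at least 1.37-fold and at least 1.60-fold lower. Dimmer probe sets above the floor were also past 1.5-fold for Wars (tryptophanyl-tRNA synthetase), at 581 and at 725 in the antagomir-122 pool, against 362 and 469 in the mm-antagomir-122 pool, and for Trib3, at 258 in the antagomir-122 pool and 436 in the mm-antagomir-122 pool. Of 10 genes of glutathione synthesis and the NRF2 response above the floor, 0 were past 1.5-fold on the brightest probe set and the median was -0.01. Gclc and Gclm, the subunits of glutamate-cysteine ligase, had log2 ratios of -0.33 and -0.02, while Txnrd1, Hmox1 and Srxn1 had -0.31, 0.26 and -0.23. A dimmer probe set of Srxn1 had signals of 287 in the antagomir-122 pool and 459 in the mm-antagomir-122 pool.

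**Figure D4:**
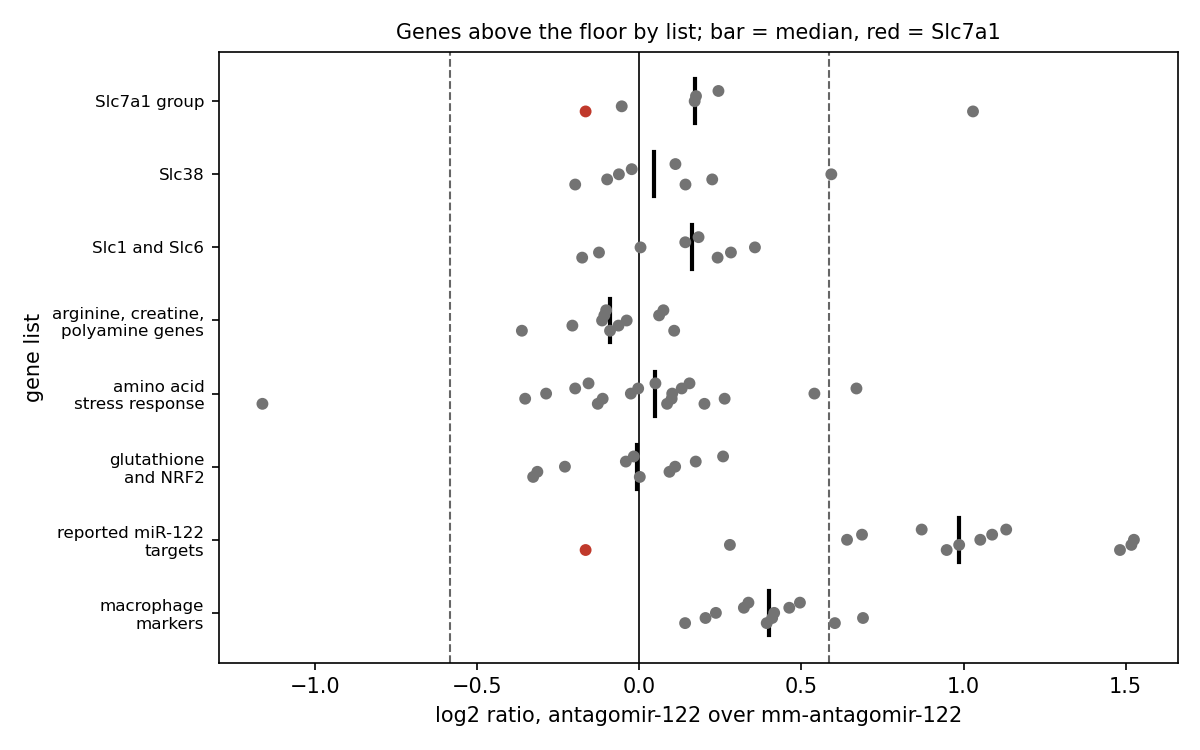
Log2 ratios of genes above the floor in 8 lists, each gene on its brightest probe set, with a bar at each list's median, dashed lines at 1.5-fold and Slc7a1 in red. The medians are 0.17 for the Slc7a1 group, -0.09 for arginine, creatine and polyamine genes, 0.05 for the amino acid stress response, 0.99 for the reported miR-122 targets and 0.40 for macrophage markers.

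The upstream sequences of Slc7a1 and Slc7a8 are shown because one is the reported miR-122 target and the other the gene past 1.5-fold. They are the 250 bases before an annotated start in RefSeq (GRCm38.p6), 5′ to 3′ on the gene's strand, for Slc7a1 at chr5:148399905-148400154 (minus strand) and for Slc7a8 at chr14:54781887-54782136 (minus strand). Windows were matched for 7 of the 10 genes (not Slc7a2, Slc7a4 or Slc7a5). Capitals mark a match to TGACNNNGC, the core of the antioxidant response element read by NRF2. That motif and TGATGNAA, the core of the element read by ATF4, were searched on both strands, where N is any base.
Slc7a1: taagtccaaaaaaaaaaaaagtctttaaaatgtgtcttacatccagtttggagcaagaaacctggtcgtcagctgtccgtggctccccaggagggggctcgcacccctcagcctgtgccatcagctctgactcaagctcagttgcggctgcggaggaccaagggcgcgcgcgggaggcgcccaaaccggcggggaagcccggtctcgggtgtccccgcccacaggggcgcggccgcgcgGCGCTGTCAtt
Slc7a8: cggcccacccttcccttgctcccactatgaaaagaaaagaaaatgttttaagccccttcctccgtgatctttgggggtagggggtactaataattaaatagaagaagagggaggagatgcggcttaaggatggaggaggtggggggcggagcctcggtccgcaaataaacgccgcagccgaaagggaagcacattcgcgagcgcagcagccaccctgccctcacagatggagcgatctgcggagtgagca
Slc7a1 has 2 annotated starts, and the window of the one further downstream held neither motif. The Slc7a1 window printed held 1 match to the NRF2 core, on the opposite strand, 11 to 3 bases before the start, and no match to the ATF4 core. The Slc7a8 window held neither. Among all 32851 windows of this length, 10.2% held the NRF2 core and 3.45% the ATF4 core. The ATF4 core was found in windows of Slc7a7 and Slc7a11, first at 66 to 59 bases before the start in Slc7a11, and the NRF2 core also in a window of Slc7a6. A match is a description of letters and not a binding site.

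Most leukocyte markers had higher signals in the antagomir-122 pool. All 12 Kupffer cell and macrophage markers were above the floor and had ratios above 0, and 2 of them were past 1.5-fold. They had a median log2 ratio of 0.40 and summed signals of 73842 in the antagomir-122 pool and 55902 in the mm-antagomir-122 pool. Of the 7 neutrophil markers with a probe set, 6 were above the floor, 5 of these were at least 1.5-fold higher and Elane had a log2 ratio of -0.31, and the sums were 8013 in the antagomir-122 pool and 2451 in the mm-antagomir-122 pool. Of 8 lymphocyte markers, 6 were above the floor and all 6 had ratios above 0, of which 2 were at least 1.5-fold higher, with sums of 4160 in the antagomir-122 pool and 2958 in the mm-antagomir-122 pool. Of the leukocyte markers with a probe set, 1 neutrophil marker and 2 lymphocyte markers lay under the floor. Slc7a7 is known from macrophages as well as epithelia. The part of leukocytes in the ratios of Slc7a7 and Slc7a8 was not tested. The 7 endothelial markers above the floor had a median log2 ratio of 0.02 and ran from -0.73 to 0.28, with 1 at least 1.5-fold lower and 0 higher by as much. The 8 stellate and fibroblast markers had a median of 0.08 and ran from -0.56 to 0.44, with 0 past 1.5-fold. All 4 cholangiocyte markers with a probe set were under the floor. In such bulk liver RNA, a different number of cells of a type and a different amount of RNA per cell cannot be told apart.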

How the data were processed

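The authors pooled total RNA from 3 livers per group and hybridised biotin-labelled cRNA to 1 array per group, per the labels' protocols. The deposited intensities are linear signals per probe set. Per the submitters' processing notes they came from MAS5. A 2% trimmed mean of 500.0 on each array, over 45101 probe sets, shows that the deposited values were scaled alike. Detection calls were not used here, and 1 array per group limits the precision.

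Names came from the platform annotation, and 34741 of 34945 single-gene probe sets were matched to RefSeq (GRCm38.p6) by gene identifier. The log2 ratio was taken with no pseudocount (Python 3.11.15, pandas 2.3.3, statsmodels 0.14.6), 1 brightest probe set standing for each gene, above a floor at the 60th percentile. Where 1 signal lay under the floor, the fold is a lower bound against it. The calculation was tested on simulated data, with 200 genes planted at each fold. The 1.5-fold cut was passed by 51.5% of genes planted at 1.5-fold and by 95.5% of those planted at 2-fold. Genes planted at the cut itself fall to either side of it, so the first share says little about sensitivity. The spread between mice was not measured, so neither share gives the power to find a difference between animals.

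The 10 genes and all lists were chosen with earlier results of these data known. Of each other list, the genes past 1.5-fold or up to 4 with the largest ratios above the floor were to be named, with all reported miR-122 targets. Cell type markers and solute carriers beyond the amino acid carriers were given as counts, sums or medians. Atf4, Asns, Gclm, Elane and the dimmer probe sets of Srxn1, Wars, Trib3, Slc6a6 and Slc38a3 were named outside this rule after their values were seen. Alternatives were median centring, quantile normalization, loess correction (span 0.3), scaling on the hybridization controls, other floors (40th percentile, 80th percentile, none), averaging the probe sets above the floor, a pseudocount of 16 on both signals, dropping probe sets suffixed _a, _s or _x, and thresholds of 1.4-fold or 2-fold.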

Additional observations from a re-analysis of the deposited data

How the results depend on the processing

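The floor decided how many of the 10 genes could be read. With a floor at the 40th percentile 9 were kept and 2 were at least 1.5-fold higher (Slc7a8 and Slc7a10). With a floor at the 80th percentile 2 were kept (Slc7a2 and Slc3a2), 0 were at least 1.5-fold higher and 1 had a ratio above 0, because Slc7a8 was left out. With no floor all 10 were kept, 3 were at least 1.5-fold higher (Slc7a5, Slc7a8 and Slc7a10) and 7 had a ratio above 0. Wherever Slc7a8 was kept, over 9 alternatives, its log2 ratio ran from 0.99 to 1.30. That of Slc7a1 ran from -0.27 to 0.11 over 9 alternatives and was above 0 in 1 of them, scaling on the hybridization controls. The median of the genes above the floor ran from 0.06 to 0.45 over 10 alternatives. The count at least 1.5-fold lower was 0 in all 12 alternatives. Without suffixed probe sets Slc7a7 and Slc3a2 had no probe set left, and 3 of 4 genes were above 0. Over all genes the counts at least 1.5-fold higher and lower, 512 and 262 as deposited, were 1693 and 63 when scaled on the hybridization controls, 1163 and 531 with the floor at the 40th percentile, 184 and 98 at the 80th and 2766 and 1714 with no floor. They were 816 and 485 at 1.4-fold and 83 and 31 at 2-fold. No paired analysis was possible because each group had 1 array.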
